A study of Caenorhabditis elegans with 2 samples.

Results

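In *Caenorhabditis elegans*, 6 genes annotated only as noncoding RNA, F08G2.13, C17G10.14, W01D2.7, T19C4.16, ZK265.11 and K08B5.8, carried strong ChIP-seq peaks of SNPC-4. They are 6 of 7764 nuclear genes of biotype ncRNA in Ensembl on WBcel235, the assembly also called ce11. Each was chosen as the annotated RNA gene nearest to a strong peak that had no small nuclear RNA (snRNA), spliced leader (SL) RNA, small nucleolar RNA (snoRNA) or tRNA gene beside it. Peak strength and nearness to a peak therefore chose the genes and are described here without a test. Ensembl gives all of them the biotype ncRNA, and no role is assigned to any of them below.

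The chromatin came from whole L2 larvae of mixed sex, strain OP179 (unc-119(ed3) III; wgIs179), which carries an eGFP-tagged *snpc-4* transgene in the *unc-119* mutant background. There was 1 group with 2 biological replicates and no second condition, and peaks were called against a control alignment. Because whole animals were used, binding in a few cells and weak binding in many cells cannot be told apart. The authors deposited peak lists for each replicate, for the pooled reads, and for peaks kept by the irreproducible discovery rate (IDR) procedure, which compares peak ranks between lists. The IDR list held 1864 peaks, the pooled list 30000, the replicate 1 list 21391 and the replicate 2 list 30000. Sequencing depth was unknown, and signal values, the authors' peak-caller strengths, are compared only within a list.

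SNPC-4 is a subunit of SNAPc, the complex that binds the proximal sequence element upstream of small nuclear RNA genes. In animals the same complex serves genes read by RNA polymerase II, such as those for U1, U2, U4, U5 and the SL RNAs, and genes read by RNA polymerase III, such as those for U6, RNase P, RNase MRP and Y RNA. In vertebrates a TATA box at a set distance after the proximal sequence element marks the polymerase III kind, and polymerase III stops at runs of T.

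The sequences upstream of the genes fell into separate forms, shown here because later results turn on them. Each line runs 5′ to 3′ on the gene's strand in WBcel235, read from the RefSeq sequence of that assembly, and ends 10 bases into the annotated gene except for C17G10.14, which shows 80 bases. In the first set, the capitals mark the 21 bases that best matched a motif built from bound snRNA and SL RNA genes. T19C4.16, K08B5.8 and C17G10.14, which took no part in building it, are followed by *sup-6*, a strongly bound U1 gene. Then come the SL2 genes *sls-2.8*, which passed the motif threshold, and *sls-2.2*, which did not. *sup-6* and both SL2 genes were among those used to build the motif.
T19C4.16 (chrV:11176873-11176935, plus strand): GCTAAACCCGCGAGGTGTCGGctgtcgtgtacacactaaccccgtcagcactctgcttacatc
K08B5.8 (chrX:16564667-16564739, plus strand): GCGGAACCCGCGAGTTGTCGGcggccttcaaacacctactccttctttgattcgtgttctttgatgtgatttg
C17G10.14 (chrII:5599694-5599773, plus strand): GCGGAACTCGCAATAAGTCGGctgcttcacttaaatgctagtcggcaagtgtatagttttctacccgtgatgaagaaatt
sup-6 (chrII:12944958-12945027, minus strand): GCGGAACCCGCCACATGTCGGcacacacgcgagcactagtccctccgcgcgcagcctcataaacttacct
sls-2.8 (chrIII:12250402-12250474, plus strand): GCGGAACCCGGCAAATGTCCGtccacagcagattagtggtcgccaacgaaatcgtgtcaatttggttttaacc
sls-2.2 (chrII:5543535-5543607, plus strand): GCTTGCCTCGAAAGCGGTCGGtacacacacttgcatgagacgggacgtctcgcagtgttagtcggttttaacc

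In the second set, the capitals mark TATATA and the 21 bases that end 19 bases before it, the spacing between the best motif match and TATATA at each of the 6 bound U6 genes. F08G2.13 and W01D2.7 are followed by W01D2.9, the ncRNA gene next to W01D2.7, by the strongest bound U6 gene and by the Y RNA gene *yrn-1*. Ensembl gives the name R07E5.16 to many U6 copies, so the U6 gene is identified by its position.
F08G2.13 (chrII:13834514-13834594, minus strand): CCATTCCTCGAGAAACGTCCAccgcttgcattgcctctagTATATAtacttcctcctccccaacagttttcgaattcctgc
W01D2.7 (chrII:14804411-14804511, plus strand): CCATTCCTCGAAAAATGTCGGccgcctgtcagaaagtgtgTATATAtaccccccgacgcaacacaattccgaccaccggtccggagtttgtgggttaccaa
W01D2.9 (chrII:14804724-14804804, plus strand): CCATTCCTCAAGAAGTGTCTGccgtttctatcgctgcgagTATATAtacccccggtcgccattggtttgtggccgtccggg
U6 (chrIII:10989608-10989688, plus strand): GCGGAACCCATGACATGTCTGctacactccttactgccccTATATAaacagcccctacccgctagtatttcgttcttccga
yrn-1 (chrIV:7499438-7499517, plus strand): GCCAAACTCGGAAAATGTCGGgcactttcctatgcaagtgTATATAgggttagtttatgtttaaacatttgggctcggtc

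F08G2.13 (WBGene00045119), a 75-base gene at chrII:13834449-13834523 on the minus strand, had the strongest peak of the 6 genes. Its signal was 2859 in the pooled list, 669 in replicate 1 and 2213 in replicate 2, and its peak ranked 4 in all of these lists. C17G10.14 (WBGene00271650), a 577-base gene at chrII:5599929-5600505 on the plus strand, had signals of 1054 pooled, 227 in replicate 1 and 831 in replicate 2, at ranks 28, 31 and 27. W01D2.7 (WBGene00045123), a 58-base gene at chrII:14804502-14804559 on the plus strand, had signals of 1009, 208 and 824 in the same lists, at ranks 31, 33 and 28. Both came next after F08G2.13 among the 6 genes and lay within a few ranks of each other in every list.

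ZK265.11 (WBGene00045370), 76 bases at chrI:8245547-8245622 on the minus strand, had signals of 718 pooled, 191 in replicate 1 and 529 in replicate 2, at ranks 40, 36 and 43. T19C4.16 (WBGene00196056), 209 bases at chrV:11176926-11177134 on the plus strand, had signals of 339, 88.4 and 249 in the same lists, at ranks 75, 63 and 77. K08B5.8 (WBGene00220011), 99 bases at chrX:16564730-16564828 on the plus strand, was the weakest, with signals of 124, 23.5 and 101 at ranks 176, 231 and 165. The order of the 6 genes was the same in the pooled list and in each replicate, and the strongest pooled signal was 23.1 times the weakest. With 2 replicates and no depth, no error could be put on these signals. The pooled list was made from the reads of both replicates, so the 3 lists are not independent.

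**Figure D1:**
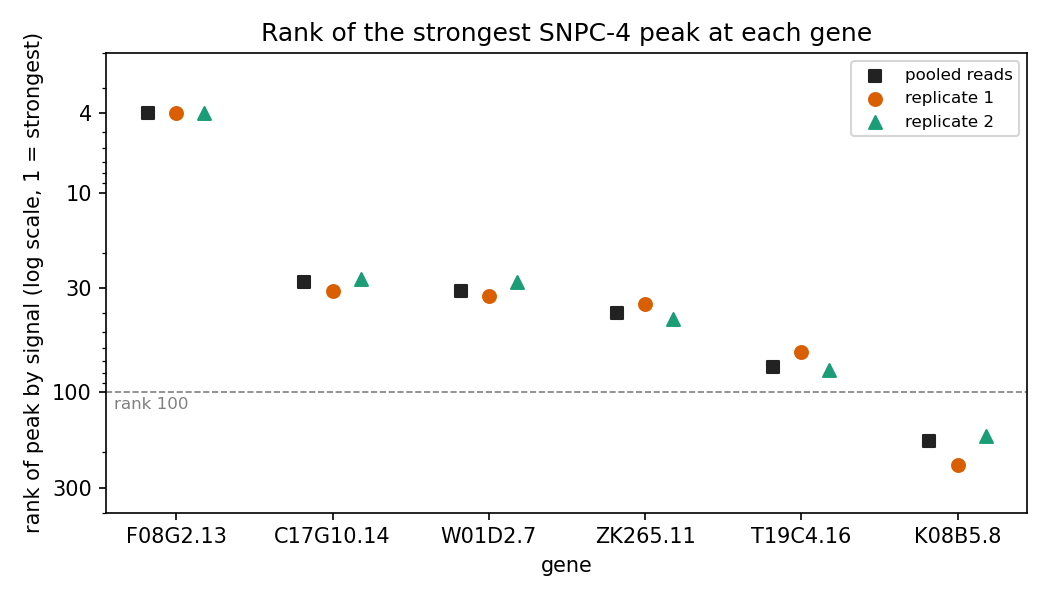
Rank of the strongest peak within 500 bp of each gene (log axis, 1 is strongest) in the pooled list and in each replicate's own list. F08G2.13 sits at rank 4 in every list, and K08B5.8, at ranks 165 to 231, is the gene outside the 100 strongest peaks (dashed line).

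All 6 genes had an IDR peak, as the choice required, and 6.21% of the pooled candidate peaks were IDR peaks. Among the 7229 ncRNA genes with no classified gene beside them, 366 had an IDR summit within 500 bp (5.06%, exact Clopper-Pearson 95% interval 4.57 to 5.59, counting error only). Peaks of the 100 strongest were found at 5 of the 6 genes and at 0.263% of the 7229, and nothing is read from these counts, since the choice used them. A pooled candidate peak of any strength lay within 500 bp of 41.6% of the same genes.

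The genes are not simply the strongest under the rule. Applied to the whole IDR list, the rule gave 255 peaks nearest to 252 genes, of which 12 peaks ranked among the 100 strongest, and 17 genes outside the described ones had a stronger peak than K08B5.8. The RNase P gene *rpr-1* (pooled signal 1728) and the RNase MRP gene *mrpr-1* (1285) were among these, because Ensembl lists them as ncRNA. The next 4 ncRNA genes were W01D2.8 at 472, C18C4.17 at 421, W01D2.9 at 336 and CD4.18 at 264.7, which lay on both sides of T19C4.16. On either side of K08B5.8, with names chosen after their values were seen, C30C11.14 had 126 and W08E3.5 had 119.

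**Figure D2:**
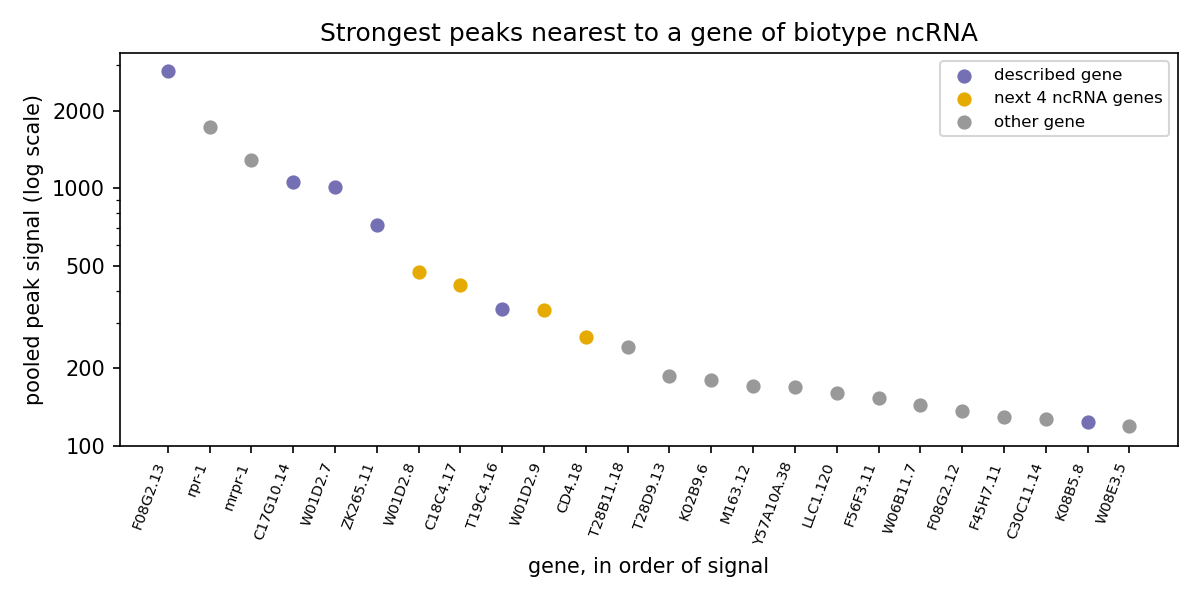
Pooled signal (log axis) of the strongest peaks whose nearest RNA gene is of biotype ncRNA, ordered by signal. The 6 described genes run from 2859 at F08G2.13 to 124 at K08B5.8, with rpr-1, mrpr-1 and the next 4 ncRNA genes between them.

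The summit lay upstream of the annotated 5′ end at all 6 genes. In the pooled list it was 56 bp upstream at F08G2.13, 46 bp at W01D2.7, 41 bp at ZK265.11, 61 bp at T19C4.16 and 57 bp at K08B5.8. C17G10.14 stood apart, with its summit 226 bp upstream. The median was 56.5 bp upstream, and 5 of the 6 summits lay between 20 and 80 bp upstream.

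Summits of the replicates were close together. Those of replicates 1 and 2 were 5 to 14 bp apart, with a median of 9 bp. Replicate 1 placed them 41 bp upstream at F08G2.13, 231 at C17G10.14, 60 at W01D2.7, 56 at T19C4.16, 49 at ZK265.11 and 47 at K08B5.8. Replicate 2 placed them 55, 226, 46, 64, 42 and 57 bp upstream of the same genes.

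Bound snRNA and SL RNA genes, those with an IDR summit within 250 bp, had nearly the same position. The 52 such genes had a median summit 51 bp upstream, with quartiles of 58.3 and 41.8 bp, and 49 of them had it upstream. The SL RNA genes among them were 14 SL2 genes, and none of the 12 SL1 genes was bound. The 52 also held 4 SmY genes and 3 genes put in no family, and some of them shared a peak. The 71 bound snoRNA genes had a median of 53 bp upstream, with 65 upstream. The summit was 31 bp upstream of *rpr-1*, 37 bp of *mrpr-1* and 50 bp of *yrn-1*. By contrast, of the 366 ncRNA genes with an IDR summit within 500 bp, the described genes included, 111 (30.3%) had it upstream and 49 (13.4%) had it 20 to 80 bp upstream. Nearness to the summit was part of the rule and the windows differed, so the last comparison is a description.

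**Figure D3:**
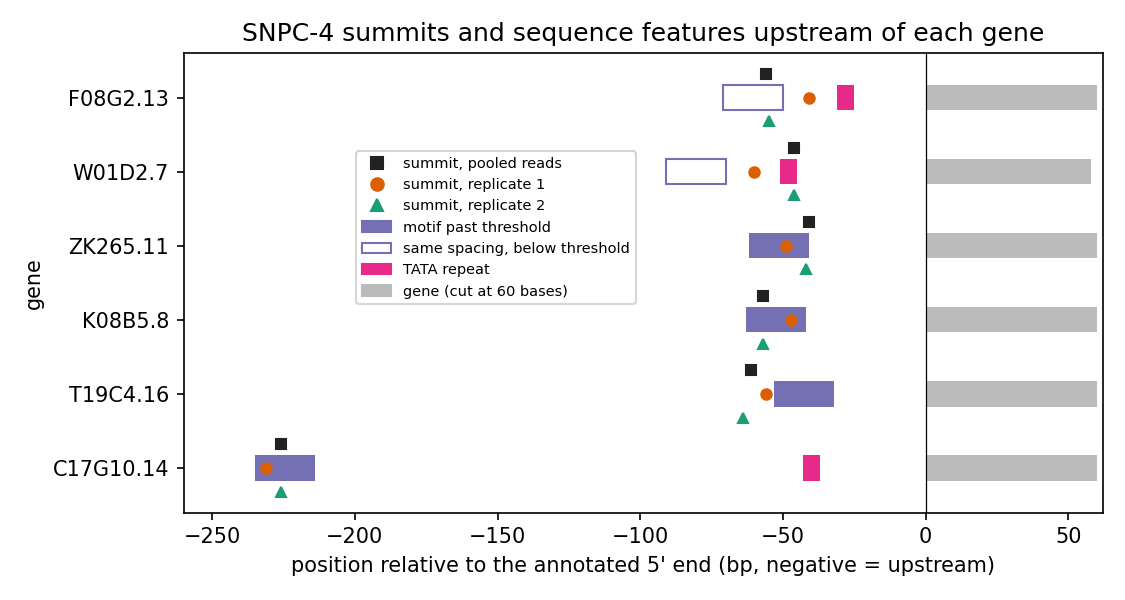
Positions of summits and of sequence features along the gene strand, in bp from the annotated 5′ end (0), for each gene. Squares, circles and triangles are the pooled, replicate 1 and replicate 2 summits. Summits cluster 41 to 64 bp upstream at 5 genes and lie 226 to 231 bp upstream at C17G10.14, over its motif (filled violet).

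The surroundings of the genes differed. F08G2.13 lay between coding genes, 948 bp from the 5′ end of F08G2.5 and 1528 bp from that of *ins-37*, an insulin-like gene, measured from the summit. W01D2.7 had its summit 147 bp from the 5′ end of W01D2.3, on the opposite strand and pointing away, and 1530 bp from that of *srt-11*. K08B5.8 was the most isolated, 6239 bp from the nearest coding 5′ end (K08B5.1) on one side and 15072 bp from that of *ser-1*, a serotonin receptor gene, on the other.

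The other genes lay within or near coding genes. The summit of T19C4.16 lay in an intron of *gpa-1*, a G protein alpha subunit gene on the opposite strand, 180 bp from 1 of its annotated 5′ ends and 812 bp from another. That of ZK265.11 lay in an untranslated exon of *ceh-8*, a homeobox gene on the same strand, 1304 bp from its 5′ end and 700 bp from that of *col-63*, a collagen gene. The summit of C17G10.14 was 327 bp from the 5′ end of C17G10.10, which is on the opposite strand and points away, and 3240 bp from that of C17G10.6. It lay 226 bp from the annotated 5′ end of C17G10.14 itself, and which of C17G10.14 and C17G10.10 the peak serves was not tested.

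Near 2 of the genes a second summit lay by another ncRNA gene. W01D2.9, 236 bp from W01D2.7 on the same strand, had a summit with a pooled signal of 336 (rank 76), at 170 in replicate 1 and 200 in replicate 2. In the pooled list the 2 summits shared 1 peak region of 666 bp, the widest of the 6 genes, while replicate 1 gave them separate regions. F08G2.12, 364 bp from F08G2.13 on the same strand and named after its values were seen, had a pooled signal of 136 (rank 157), at 60.2 in replicate 1 and 89.5 in replicate 2. The pooled and replicate 2 summits of both neighbours lay 88 bp upstream of their own 5′ ends. Replicate 1 placed them elsewhere, 14 bp upstream at W01D2.9 and 64 bp upstream at F08G2.12.

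A 21-base motif was built from the 100 bp upstream of 47 bound snRNA and SL RNA genes, none of them among the described genes. At 16 of the 21 positions a single base had a frequency of at least 60%, and these are the specified letters counted below. Scores add up, over the 21 positions, the log2 ratio of motif to genome base frequency, and the threshold of 22.9 was the lowest quartile of the genes used to build it. Both strands were searched within 75 bp of each summit. A match to it is a description of letters and not a mapped binding site.

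The motif passed the threshold at 4 of the 6 genes, always on the strand of the gene. K08B5.8, the gene with the weakest peak, had the highest score, 35.9, and matched 16 of the 16 specified consensus letters. T19C4.16 scored 32.1 and ZK265.11 30.7, with 15 matching letters each, and C17G10.14 scored 26.6 with 14. The motif was found at 10.4% of the other 1833 nuclear IDR summits, at 1.02% of the 28136 other candidates and at 55.7% of the other nuclear summits among the 100 strongest peaks. Of the 249 other IDR peaks nearest to an ncRNA gene with no classified gene beside it, 3.61% held the motif. Those of *rpr-1*, *mrpr-1* and *yrn-1* were among the peaks that held it. The motif lay in the 100 bp upstream of 0.129% of all other ncRNA genes and of 0.456% of all other nuclear RNA genes. The shares over other IDR summits, the 100 strongest peaks and all nuclear RNA genes include the genes used to build the motif. Most of those pass because the threshold is their lowest quartile.

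The motif lay close to the gene at 3 of the 4. Its last base lay 42 bp upstream of the 5′ end at ZK265.11, 43 bp at K08B5.8 and 33 bp at T19C4.16. For the best match at each bound gene, the median was 40 bp at U1, 42 bp at U2 and U5, and 43 bp at U4, SL2 and snoRNA genes. At C17G10.14 the last base was 215 bp upstream, and the pooled summit lay 1 bp from the centre of the match. The summits were 4 bp from the centre at K08B5.8, 11 bp at ZK265.11 and 18 bp at T19C4.16.

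F08G2.13 and W01D2.7 scored 3.78 and 11.6 and did not pass. Failing to pass does not show that no related element is there. In simulated sequences with a random planted motif, 118 of 200 planted sites passed a threshold taken from the simulated training scores. That share belongs to the simulated motif and does not measure how often the motif used here misses a site. With the motif used here, 0 of 5 bound U2 genes passed. Against these, 9 of 9 passed for U1, 2 of 2 for U4 and 8 of 9 for U5. For U6 5 of 6 passed, and for SL2 9 of 14. Of the 4 SL2 genes with the strongest peaks 1 passed, *sls-2.8* at 28.6, while *sls-2.4* scored 16.5, *sls-2.2* 14.3 and *sls-2.1* 17.2. The best match at F08G2.13 was on the opposite strand and overlapped the gene.

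**Figure D4:**
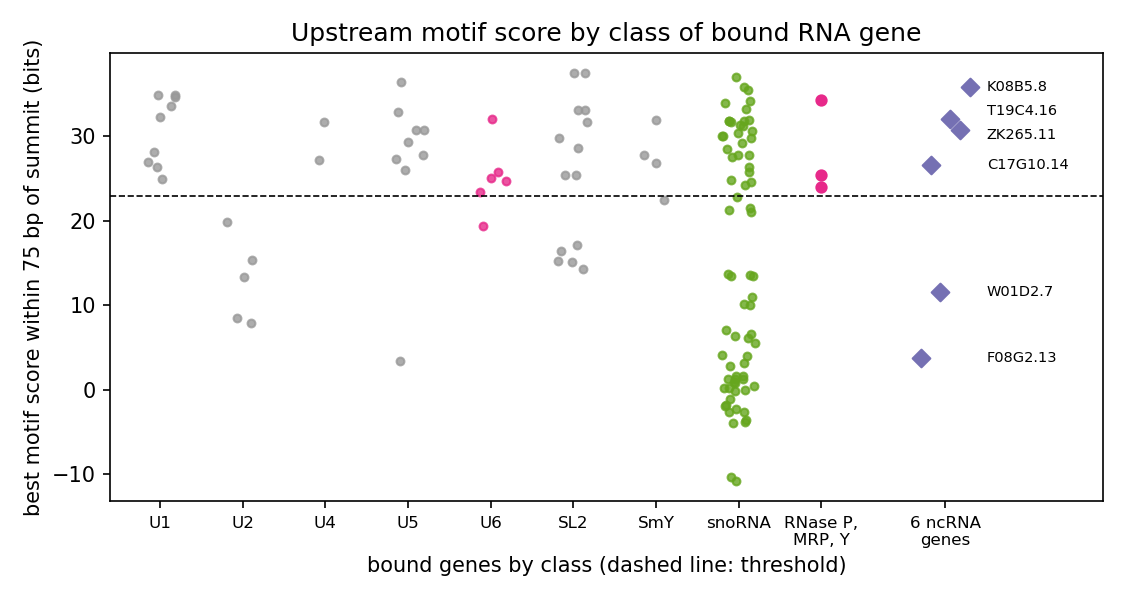
Best motif score (bits) within 75 bp of the summit for each bound gene, by class, with the threshold of 22.9 dashed. K08B5.8, T19C4.16, ZK265.11 and C17G10.14 lie above the line at 35.9 to 26.6, and W01D2.7 and F08G2.13 below it at 11.6 and 3.78.

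The genes below the motif threshold both had TATATA upstream. TATATA is its own reverse complement, so a search of 1 strand covers both. It began 31 bp upstream of F08G2.13 and 51 bp upstream of W01D2.7. At bound U6 genes it was present within 60 bp upstream in 6 of 6, each time 19 bases after the best motif match, which passed the threshold at 5 of them. At *rpr-1* and *yrn-1* it began 30 bp and at *mrpr-1* 34 bp upstream. It was found at 1 of 43 bound U1, U2, U4, U5, SL2 and SmY genes (*smy-1*, whose summit lay 307 bp downstream of its 5′ end). Of 3 bound genes of biotype snRNA put in no family, 1 had TATATA. That gene was M163.13, named after its values were seen, where TATATA began 30 bp upstream. TATATA was also found at 1 of 71 bound snoRNA genes and at 2.27% of the other ncRNA genes. ZK265.11, T19C4.16 and K08B5.8 had none in that window, and C17G10.14 had one 43 bp upstream, 171 bases after its motif.

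The 21 bases that end 19 bases before TATATA, in capitals above, were alike at F08G2.13 and W01D2.7. Both begin with CCATTCCTC, as does W01D2.9, where TATATA began 31 bp upstream. Scored at that fixed place against the motif, they reached 2.85 at F08G2.13 and 11.6 at W01D2.7, with 8 and 10 of the 16 specified letters. CCATTCCTC was picked as the letters that these 3 genes share at that place, so its presence at them is not a test. Searched on both strands, it was present at 0.273% of the other nuclear IDR summits and 0.0817% of the other candidates. The other IDR summits and the other RNA genes still include W01D2.9. On the gene strand it was in the 110 bp upstream of 0.0323% of the other 24783 nuclear RNA genes. F08G2.12, the neighbour of F08G2.13, had TATATA 30 bp upstream but not CCATTCCTC.

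A run of 4 or more T lay within 20 bp of the annotated 3′ end at 5 of the 6 genes, and at 36.5% of the other ncRNA genes. The longest run was 7 at K08B5.8, 6 at T19C4.16, 5 at F08G2.13 and W01D2.7, 4 at C17G10.14 and 2 at ZK265.11. The 6 bound U6 genes all had such a run, against 7 of 43 bound U1, U2, U4, U5, SL2 and SmY genes and 49 of 71 bound snoRNA genes. T runs were thus found at genes with and without TATATA.

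F08G2.13 and W01D2.7 also share letters within the RNA. The closest annotated RNA to F08G2.13 by blastn (E below 0.001) was C18C4.17, identical at 86.7% of 30 aligned bases, and W01D2.7 and ZK265.11 had none. In a comparison made after the data were seen, both genes and several others held GGGTTANC followed by CTTGAC, searched on the gene strand only. The annotated RNAs are printed with those blocks in capitals.
F08G2.13 (chrII:13834449-13834523, minus strand): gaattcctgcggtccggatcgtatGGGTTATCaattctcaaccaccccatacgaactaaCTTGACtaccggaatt
W01D2.7 (chrII:14804502-14804559, plus strand): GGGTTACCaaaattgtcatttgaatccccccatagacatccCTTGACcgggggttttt
W01D2.9 (chrII:14804795-14804876, plus strand): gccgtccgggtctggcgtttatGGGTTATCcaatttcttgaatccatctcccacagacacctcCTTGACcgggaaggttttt
C18C4.17 (chrV:5576222-5576373, plus strand): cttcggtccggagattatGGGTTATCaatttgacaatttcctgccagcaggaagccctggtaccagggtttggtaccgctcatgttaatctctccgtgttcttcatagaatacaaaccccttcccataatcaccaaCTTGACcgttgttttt
mir-2214 (chrIII:7278715-7278778, plus strand): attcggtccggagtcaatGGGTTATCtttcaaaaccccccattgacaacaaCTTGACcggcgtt

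Both blocks occurred in 13 RNA genes of up to 200 bases, of which 11 are annotated as ncRNA, and in 0.174% of the 6337 ncRNA genes of that length. The 13 were F08G2.13, W01D2.7, their neighbours F08G2.12 and W01D2.9, and W01D2.8, C18C4.17, CD4.18, CD4.19, M163.12, M163.13, M163.15, B0361.13 and *mir-2214*, several of them named only after their values were seen. An IDR summit lay within 250 bp of 12 of the 13, over 10 distinct peaks, since *mir-2214* and B0361.13 share a peak, as do CD4.18 and CD4.19. TATATA lay within 60 bp upstream of all 13, a run of 4 or more T lay at the 3′ end of all 13, and the motif of snRNA and SL RNA genes passed at 0 of the 12 with a summit. M163.13, among those 12, was itself among the genes used to build that motif. Among the 13, only F08G2.13, W01D2.7 and W01D2.9 held CCATTCCTC upstream. The blocks were picked from genes with strong peaks, so the share with a summit is a description.

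W01D2.7 differed from the other 12 in its annotated start. TATATA began 51 bp upstream of it and the first block began at base 1, against 30 to 32 bp and bases 19 to 26 in the others. From TATATA to the first block there were 51 bases at W01D2.7, within the 49 to 55 bases of the others. Whether the annotated 5′ end of W01D2.7 is the end of the RNA was not tested.

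**Figure D5:**
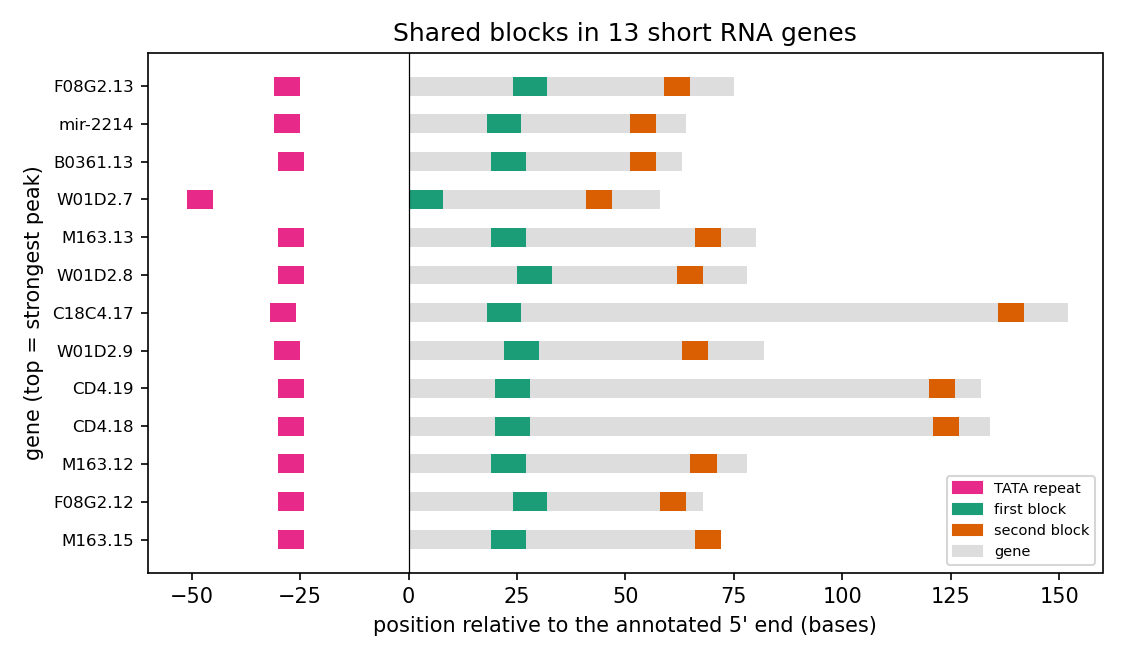
The 13 short RNA genes that hold both blocks, drawn in bases from the annotated 5′ end and ordered by pooled signal. TATATA (pink) begins 30 to 32 bp upstream in 12 genes and 51 bp upstream at W01D2.7, where the first block starts at base 1.

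T19C4.16 was the gene most like known RNAs. It contains 178 bases identical to the snoRNA gene T19C4.11 (WBGene00045170, chrV:11175529-11175706, minus strand), starting at its base 18, and they are printed in capitals to show how much of the gene they fill. Ensembl gives the same name, T19C4.11, to an ncRNA gene made of those bases inside T19C4.16 (WBGene00045169).
T19C4.16 (chrV:11176926-11177134, plus strand): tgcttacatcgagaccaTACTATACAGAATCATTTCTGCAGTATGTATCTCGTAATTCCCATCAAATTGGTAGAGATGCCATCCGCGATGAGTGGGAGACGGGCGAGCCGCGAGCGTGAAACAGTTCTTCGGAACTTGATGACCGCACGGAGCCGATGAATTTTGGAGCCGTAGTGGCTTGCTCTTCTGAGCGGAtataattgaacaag
Reads from within the identical bases could come from either place. Upstream the copies diverge, with 13 unbroken identical bases before the 178 and 76 of 100 flanking bases identical, and the summits lie there. The snoRNA copy had its own IDR peak, with a pooled signal of 199 (rank 110) and a summit 64 bp upstream. Measured from the start of the ncRNA copy, the motif of T19C4.16 ended 50 bp upstream, the same distance as at the snoRNA copy. In all, 5 snoRNA genes were similar to T19C4.16, at 90.9 to 100% identity, and each had an IDR peak and the motif 50 to 57 bp upstream. T19C4.17, an ncRNA gene on the strand opposite to the snoRNA copy, matched 194 bases of T19C4.16 in reverse.

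K08B5.8 resembled other bound RNA genes. Over 70 bases it was 88.6% identical to *cel-mir-8196a* and to the overlapping long noncoding RNA gene *linc-154*, and over 83 bases it was 84.3% identical to the snoRNA gene T21F2.3. The aligned 70 bases of K08B5.8 and their counterpart are in capitals, since they lie at the 3′ end of K08B5.8.
K08B5.8 (chrX:16564730-16564828, plus strand): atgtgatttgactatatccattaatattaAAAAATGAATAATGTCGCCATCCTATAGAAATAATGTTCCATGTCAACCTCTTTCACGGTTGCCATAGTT
cel-mir-8196a (chrX:2328994-2329124, plus strand): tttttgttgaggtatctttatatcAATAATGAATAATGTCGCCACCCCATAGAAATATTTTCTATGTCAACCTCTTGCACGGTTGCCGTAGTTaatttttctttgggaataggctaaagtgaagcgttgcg
These genes were bound too. The pooled signal was 390 (rank 66) at *cel-mir-8196a*, 3.1 times that of K08B5.8, and 37.1 (rank 1248) at T21F2.3, with summits 60 bp upstream at both. Both held the motif, at scores of 31.5 and 31.4, with the last base 49 and 42 bp upstream of the gene. The genome held 6 matches to K08B5.8 and 6 to T19C4.16, each counting itself, 3 to C17G10.14, and 1 to F08G2.13, W01D2.7 and ZK265.11.

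ZK265.11 had no like RNA gene but held letters of box C/D snoRNAs, which guide methylation of other RNAs. It had TGATGA in its first 25 bases and CTGA in its last 15, searched on the gene strand only, while the other 5 genes did not. The same letters were found in 4.34% of 346 snoRNA genes and in 0.0644% of 7764 ncRNA genes, ZK265.11 included. Since few snoRNA genes held them, their absence at the other 5 genes says little.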

How the data were processed

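Per the deposited description files, the authors called peaks on either replicate and on their pooled reads, with an alignment of control reads, and passed these lists to IDR. Which aligner and peak caller they ran is not given in the sources used here. Each peak's signal, as deposited by the authors, is the peak-caller strength, with no statement on scaling for depth. Only the ce11 lists were used, with Ensembl release 115 genes and the RefSeq sequence of WBcel235. No table column belonged to other samples.

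The genes and lists were chosen with earlier results of these data known. A summit was the deposited peak offset added to the start. Peaks within 500 bp of a gene body were read from each list for the described genes and for the shares of ncRNA genes. An snRNA, SL RNA, snoRNA, RNase P, RNase MRP or Y RNA gene was called bound if an IDR summit lay within 250 bp. Similar RNA genes found by blastn were also read within 250 bp. All counts are descriptions without a test, because there was 1 group. Intervals cover counting error alone, as no depth was given. The replicates were separate biological samples per the labels.

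snRNA families were assigned from letters near the start of the gene or from gene names. The motif was built by expectation maximisation with 1 site per gene, 21 bases wide. The procedure was tested on simulated data with a random planted motif and a threshold from the simulated training scores. There 200 of 200 planted sites scored best at the planted place, 118 passed that threshold and 0 of 200 sequences without a site passed. A motif from bound snoRNA genes, other windows, thresholds and lists were the alternatives. TATATA, CCATTCCTC, the 2 blocks and the box C/D letters were searched after the data were seen. Likeness was measured with blastn 2.17.0 (word size 7, low-complexity filter on).

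Named genes were the 6 genes, the coding genes that contain or flank their summits, the next 4 ncRNA genes in signal, *rpr-1*, *mrpr-1* and *yrn-1*, up to 3 most similar RNA genes, and the strongest bound gene of each snRNA family and of SL2. For SL2 that gene, *sls-2.4*, is given by its score, and *sls-2.8* and *sls-2.2*, next in signal, are printed. *sls-2.1*, *smy-1* and the others so marked were named after their values were seen. No sequence from chromosome I is printed. Scripts ran in Python 3.11.15 with pandas 2.3.3, numpy 2.4.6 and scipy 1.17.1, and figures were drawn with matplotlib 3.10.9.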

Additional observations from a re-analysis of the deposited data

How the results depend on the processing

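No paired analysis was possible because the study had 1 group. The 6 genes all kept an IDR summit with a window of 250 bp, in the stronger 932 peaks and in as many of the strongest peaks of each replicate as the IDR list holds, and 5 kept one within 100 bp, where C17G10.14 was lost. The share of other ncRNA genes with a summit moved more: from 5.06% to 4.25% with a window of 250 bp, 3.51% with 100 bp and 2.78% in the stronger peaks, since fewer positions count. It ranged from 5.02% without replicate 1 to 5.88% without replicate 2. The median summit distance from the 5′ end, negative upstream, ranged from -56 bp without replicate 1 to -52.5 bp without replicate 2, and all 6 summits stayed upstream in each list. In each list 5 genes were among the 100 strongest peaks, also on the nuclear chromosomes alone. The IDR peaks are the strongest of the pooled list, so their values are the same by construction. The motif was held by 4 genes under a search of 150 bp each side and with the snoRNA motif, and by 3 (without C17G10.14) with the threshold at the median of the training genes or in the 100 bp upstream. The snoRNA motif was built in part from the 5 snoRNA genes similar to T19C4.16 and from T21F2.3, which is similar to K08B5.8. At these 2 genes that alternative is therefore not independent. A T run was held by 4 genes within 10 bp of the 3′ end (without T19C4.16) and by 4 with a run of 5 T (without C17G10.14). Depth was unknown, so no limit of detection could be given.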

Other observations

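Among the 249 other IDR peaks nearest to an ncRNA gene with no classified gene beside it, 9 held the motif. Those of *rpr-1* and *mrpr-1* were among them. Of the other 7, the peak nearest to F55G1.20 was that of *yrn-1*, with its summit 50 bp upstream of *yrn-1*. F44E5.16, named after its values were seen, was the 1 of the 7 whose summit lay 20 to 80 bp upstream of the ncRNA gene nearest to it. The summit of F44E5.16 lay 40 bp upstream, with a score of 31.7 and a pooled signal of 44.0 (rank 920). Its score lay between those of T19C4.16 and ZK265.11, and its signal was lower than that of each of the 6 genes.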
